A study of Homo sapiens with 6 samples.

Results

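Levels of 10 genes that restrain MAPK pathways, most of them the ERK pathway, were measured in A375, an established line of human melanoma cells with an activated BRAF kinase. They were the MAPK phosphatases DUSP1, DUSP4, DUSP5, DUSP6, DUSP8 and DUSP10, the Sprouty genes SPRY2 and SPRY4, and the SPRED genes SPRED1 and SPRED2. They were taken by symbol from the deposited gene table, and 10 of 10 were found among its 28395 genes. Wild-type A375 cells, grown in DMEM with 10% fetal bovine serum, received ozonated olive oil (OZO) or, as the control, olive oil (OLO), each at 0.01% for 6 h, and RNA-seq was performed on 3 libraries of each group. The labels do not say whether the libraries of a group came from separate cultures, and the study describes its transcriptomic values as independent experiments.

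The deposited table compares OZO with OLO, and its columns for that comparison hold the authors' own fold change, moderated t, p-value, adjusted p-value and log odds, which are not used here. Single-library values were not used here. The remaining measurement is the authors' mean log2 CPM (counts scaled to the size of the library, on a log2 scale) of each gene over all 6 libraries. It blends the OLO and the OZO libraries, so whether OZO moved any of the 10 genes was not tested, and no spread between libraries stands behind any level given here.

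In the ERK pathway, RAS proteins activate the RAF kinases, RAF kinases activate MEK1 and MEK2, and these activate ERK. Active ERK induces its own inhibitors. MAPK phosphatases (DUSP proteins) remove the activating phosphates from ERK, JNK or p38, whereas Sprouty and SPRED proteins act upstream, at the level of receptor signalling, RAS and RAF. Melanoma cells with activated BRAF are known to express several of these genes at high levels.

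DUSP8, a phosphatase that prefers JNK and p38, was listed at 0. A stretch of its sequence that the genome build holds in more than 1 place is given first. The first coding stretch of DUSP8, in exon 2 on the minus strand of chromosome 11 (hg38, chr11:1565677-1565826), begins with the start codon. The same 150 bases, which is the length of 1 sequencing read in this study, lie without any difference on the alternate contig chr11_KI270830v1_alt of hg38, at positions 47914 to 48063. An alternate contig is a further version of a chromosome region that the genome build carries beside the chromosome itself.

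DUSP8 exon 2: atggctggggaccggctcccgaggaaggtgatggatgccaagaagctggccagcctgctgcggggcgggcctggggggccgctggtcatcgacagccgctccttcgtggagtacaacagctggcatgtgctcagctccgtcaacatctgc

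DUSP1 and DUSP8 held a cyclic AMP response element (CRE) in the 250 bases before the start site used for each. A CRE has the letters TGACGTCA, which read the same on both strands. These windows are shown because CREB and ATF factors bind this element. The sequences are from RefSeq (GRCh38.p14), both on the minus strand and written 5′ to 3′, with the CRE in capitals. The DUSP1 window is chr5:172771196-172771445 and the DUSP8 window is chr11:1572272-1572521.

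DUSP1 promoter: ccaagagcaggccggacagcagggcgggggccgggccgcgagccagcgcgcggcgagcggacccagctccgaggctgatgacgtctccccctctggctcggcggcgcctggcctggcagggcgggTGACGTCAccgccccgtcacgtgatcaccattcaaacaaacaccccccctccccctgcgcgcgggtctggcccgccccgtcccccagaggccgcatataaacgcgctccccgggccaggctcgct

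DUSP8 promoter: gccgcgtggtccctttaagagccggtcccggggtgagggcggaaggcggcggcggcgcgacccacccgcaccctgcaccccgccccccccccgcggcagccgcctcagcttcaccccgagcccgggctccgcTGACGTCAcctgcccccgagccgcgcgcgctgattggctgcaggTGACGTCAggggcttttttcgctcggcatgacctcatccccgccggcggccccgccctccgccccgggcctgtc

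The CRE of DUSP1 begins 125 bases before the start site used, and those of DUSP8 begin 118 and 74 bases before theirs. The start used for DUSP8 is at 1572271, as in GENCODE. Its RefSeq gene reaches further upstream, to 1572848, so this window lies inside that gene. The SPRY4 window likewise lies inside its RefSeq gene, which reaches to 142325021. Of all 35116 RefSeq promoter windows of this length, 1.65% held a CRE. Windows were found for 8 of the 10 genes, with 12 windows in all because DUSP10, SPRED2 and SPRY2 have several windows. Other motifs were searched on both strands as well. None of the 12 windows held the AP-1 letters TGANTCA (6.57% of all windows), the ETS letters CCGGAAG (8.52%) or a CArG box, the site of serum response factor (1.16%), which says only that these letters are not in these windows. The TATA letters TATAAA were in windows of DUSP1 and SPRED2 (10.7% of all windows). The GC box GGGCGG was in 7 windows, of DUSP1, DUSP8, DUSP10, SPRY2, SPRY4 and SPRED1 (42.6% of all windows). CpG dinucleotides were frequent, and 9 of the 12 windows held more than the median of 11 over all windows. The DUSP8 window held 33 and the DUSP1 and SPRED1 windows 30 each.

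The mean log2 CPM of a gene with no read in any library is the lowest value of the table, -5.20, and low genes lie at steps above it that whole reads give. From this lowest value the geometric mean of the library sizes was recovered as 18409902 counted reads, as the authors scaled them. The distance of a gene above that value gave its geometric mean number of reads per library. This number includes the 0.5 added to every count before the logarithm. At this depth 21383 genes had a read in 1 library or more, 13839 genes averaged 10 reads or more per library, and 7012 genes (24.7%) were listed at 0. A count of 0 in a library of mean size allows up to 0.163 CPM (3 counts), and a count of 0 in all 6 allows up to 0.0272 CPM. These limits cover counting error only. The depth of each single library was not recovered. Of 10 melanocyte and melanoma markers 7 reached this minimum of 10 reads, with SOX10 at 919 and MITF at 499, whereas the pigment genes PMEL and DCT were at 6.25 and 5.24 and TYR was listed at 0. All 4 neural crest and dedifferentiation markers reached it, AXL with 4916 reads. Markers of other cell types reached it in 2 of 5 (keratinocyte), 3 of 5 (fibroblast), 1 of 3 (endothelial) and 1 of 4 (leucocyte) cases. The highest of these were CD68, a lysosomal protein best known from macrophages, with 604 reads and KRT10 with 469.5, in the range of MITF, whereas KRT5 was at 2.06, PTPRC at 1.57 and KRT1 was listed at 0. These values are means over both groups, and the part of other cells in them was not tested.

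Of the 10 feedback genes, 9 were well covered, with geometric means between 419 and 2684 reads per library. In the plot of all genes of the table they lie in the upper part of the distribution of mean log2 CPM. Because a long transcript yields more fragments than a short one, genes were compared on the mean log2 CPM per kb of annotated exon (union of all exons in GENCODE 44). On this scale the 9 genes lay between 3.01 and 4.23, a range of 2.34-fold, with a median of 3.82. The median over all 10, DUSP8 included, was 3.71, beside 2.14 over the genes that averaged 10 reads or more. The lowest of the 9, DUSP10, stood at percentile 64.0 of those genes and the highest, SPRED1, at percentile 82.6.

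**Figure D1:**
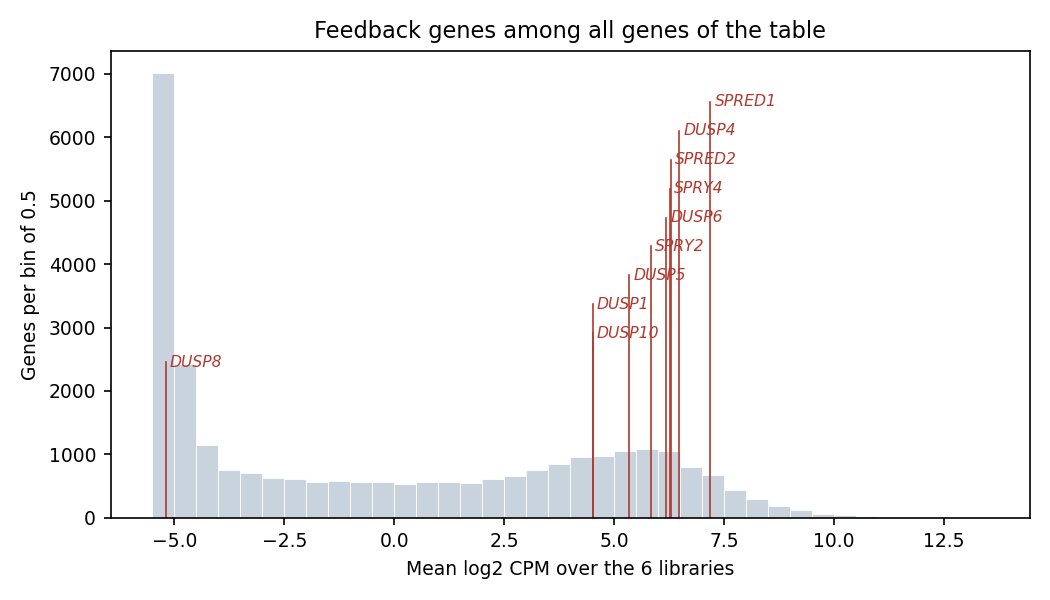
Number of genes (y axis) in bins of 0.5 of the mean log2 CPM over the 6 libraries (x axis). Red lines mark the 10 feedback genes and their heights only separate the names. Of these, 9 lie between 4.51 and 7.19, whereas DUSP8 lies in the peak of genes listed at 0.

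DUSP1, DUSP4 and DUSP5 encode the inducible phosphatases of the nucleus. DUSP1 acts on JNK and p38 as well as ERK and is an immediate early gene (chr5:172768096-172771195, minus strand). Its mean log2 CPM was 4.51, or 419.6 reads per library, and its level was 3.50 log2 CPM per kb. DUSP4 (chr8:29333064-29350684, minus strand) had a mean log2 CPM of 6.47 and 1628 reads. Its exon union is 7273 bases, against 2013 for DUSP1, and so the gap in reads became small per length, with DUSP4 at 3.60 log2 CPM per kb. DUSP5, a phosphatase selective for ERK (chr10:110497907-110511533, plus strand), had a mean log2 CPM of 5.33 and 742 reads. At 3.99 log2 CPM per kb it was the highest of these nuclear phosphatases, above DUSP1 by 0.49 on the log2 scale. With the longest or the canonical transcript DUSP5 was at 4.02 and DUSP4 close to it at 3.99.

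DUSP6 encodes the cytoplasmic phosphatase that is selective for ERK and is widely used as a readout of ERK activity (chr12:89347235-89352501, minus strand). It had a mean log2 CPM of 6.18 and 1334 reads. Its level of 4.23 log2 CPM per kb was the highest among the phosphatases, 1.18-fold above DUSP5 and 1.54-fold above DUSP4. On the log2 scale its lead over DUSP4 was 0.63, and 0.33 with the longest or the canonical transcript. Its lead over DUSP5 was 0.24, and 0.30 with those lengths. Of its 3859 exon bases, 1105 (28.6%) overlap a long noncoding RNA gene on the opposite strand (ENSG00000274021). The library kit marks strand, but the use of strand in counting is not stated, so reads of this overlap could belong to either gene.

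DUSP10, a phosphatase of JNK and p38 (chr1:221701424-221742089, minus strand), had a mean log2 CPM of 4.51 and 419 reads, nearly those of DUSP1. Per length it was the lowest of the 9 genes with reads, at 3.01 log2 CPM per kb, and DUSP6 was 2.33-fold above it.

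SPRY2 and SPRY4 encode Sprouty proteins, which dampen signalling from receptor tyrosine kinases to RAS and RAF. SPRY2 (chr13:80335976-80341126, minus strand) had a mean log2 CPM of 5.83 with 1049 reads, and SPRY4 (chr5:142310427-142326455, minus strand) 6.26 with 1414 reads. SPRY4 thus had more reads, but its exon union of 6555 bases is longer than the 3213 bases of SPRY2. Per length the order turned, with SPRY2 at 4.15 and SPRY4 at 3.55 log2 CPM per kb, a difference of 1.51-fold. With the length of the canonical transcript alone this difference was 0.67 on the log2 scale, against 0.60 with all annotated exons.

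SPRED1 and SPRED2 encode membrane proteins that bring neurofibromin (NF1) to RAS and so favour its inactive form. SPRED1 (chr15:38252836-38357249, plus strand) had the most reads of the 10 genes, 2684 per library with a mean log2 CPM of 7.19, and also the highest level per length, 4.23 log2 CPM per kb. SPRED2 (chr2:65310851-65432637, minus strand) had a mean log2 CPM of 6.28 and 1432 reads, or 3.82 log2 CPM per kb. SPRED1 was 1.33-fold above SPRED2 with all annotated exons. On the log2 scale this lead was 0.41, and 0.22 with the longest or the canonical transcript. Their partner NF1 had 4295 reads, more than SPRED1, but stood at percentile 55.6 per kb of all annotated exons. Other lengths are not given here for NF1, so this percentile rests on the annotated exons.

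From the highest to the lowest level per length, the order was SPRED1, DUSP6, SPRY2, DUSP5, SPRED2, DUSP4, SPRY4, DUSP1, DUSP10 and DUSP8. SPRED1 and DUSP6 were equal to 2 decimals. Since no spread between libraries is available, which neighbours in this order differ beyond that spread could not be decided. The order also depends on the length used, and 5 of the 10 genes kept their rank with the longest or with the canonical transcript. In the plot of levels by length used, SPRY2 moved most, from 4.15 to 4.64 with its canonical transcript, which placed it first, while DUSP1 kept 3.50 and DUSP10 remained the lowest of the 9 genes.

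**Figure D2:**
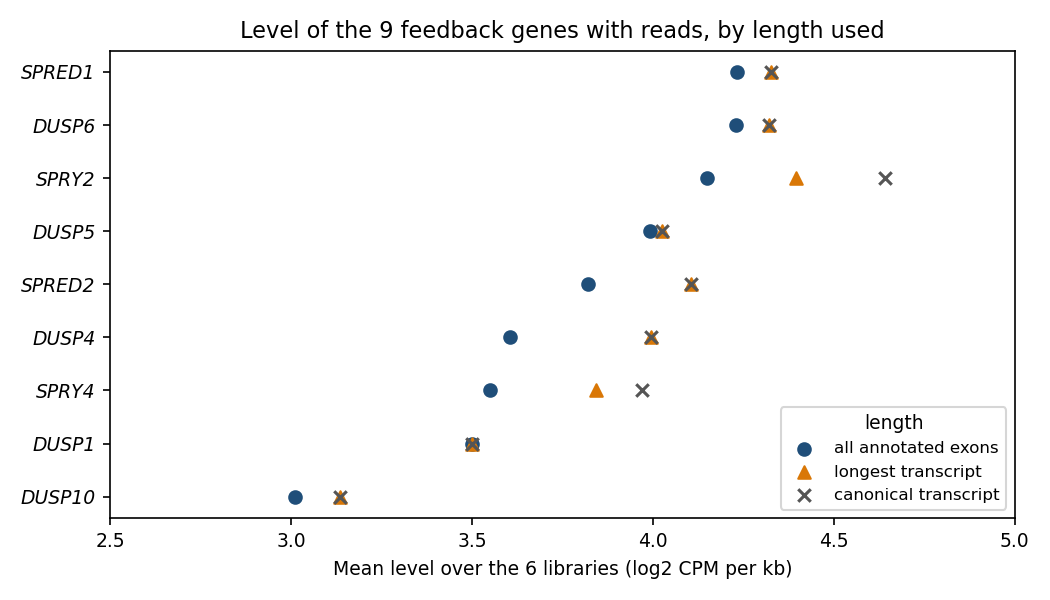
Mean level over the 6 libraries in log2 CPM per kb (x axis) of the 9 feedback genes with reads (y axis), scaled by all annotated exons (circles), the longest transcript (triangles) or the canonical transcript (crosses). With all annotated exons the levels span 3.01 to 4.23.

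The other members of the same families were at lower levels per length than the 9 genes with reads. The families were divided with earlier results of these data known. DUSP8, which has no counted read, was left out of this comparison, whereas the other members were kept however few their reads. The gap therefore describes these lists and is no test of a difference within the families. Among the other MAPK phosphatases, DUSP7, a cytoplasmic ERK phosphatase like DUSP6, was the highest at 2.14 log2 CPM per kb with 460 reads, 4.26-fold below DUSP6. With the length of the longest or the canonical transcript this difference was 1.43 on the log2 scale instead of 2.09. DUSP16, a phosphatase of JNK and p38, was at 1.51, 2.82-fold below DUSP10. DUSP9, a further cytoplasmic ERK phosphatase, and DUSP2, a nuclear one best known from immune cells, were at -0.52 and -1.02 log2 CPM per kb with 35.5 and 17.5 reads.

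SPRY1 was at -0.80 log2 CPM per kb with 41.8 reads, below SPRY2 by 4.95 and below SPRY4 by 4.35 on the log2 scale. SPRY3 had 6.84 reads, under the minimum of 10, and lay at -4.83. SPRED3 was at 0.72 with 178 reads, 8.55-fold below SPRED2. The median level was 0.50 for the 4 other MAPK phosphatases and -0.80 for the 3 other Sprouty and SPRED genes.

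The kinases that these inhibitors restrain were measured alongside them. All 10 genes of the ERK cascade averaged 10 reads or more, with a median of 3.23 log2 CPM per kb. NRAS was the highest at 5.67 with 4044 reads. The genes for MEK1 and MEK2, MAP2K1 and MAP2K2, were at 4.37 and 2.41, and MAPK3, which encodes ERK1, was at 2.05. BRAF had more reads than ARAF, 1629 against 784, but per kb of all annotated exons it was at 1.92, below ARAF at 3.64. Other lengths are not given here for the genes of these lists, so their order per length rests on the annotated exons. HRAS was the lowest at -1.89 with 12.1 reads, and 86.5% of its transcript sequence, counted in words of 31 bases, also lies on alternate contigs. The 9 adaptors and RAS regulators had a median of 4.13, from KSR1, a scaffold of the cascade, at -0.59 to the adaptor SHC1 at 5.63.

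Of the 7 stress MAPK genes, which encode the JNK and p38 kinases, 6 averaged 10 reads or more. MAPK14, which encodes p38 alpha, was the highest at 3.41 log2 CPM per kb. The JNK genes MAPK8 and MAPK9 were at 2.85 and 2.87, whereas MAPK10, the JNK gene of neurons, had 8.34 reads and lay at -6.56. The plot of the MAPK pathways shows the 9 feedback genes with reads within the span of the ERK cascade.

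**Figure D3:**
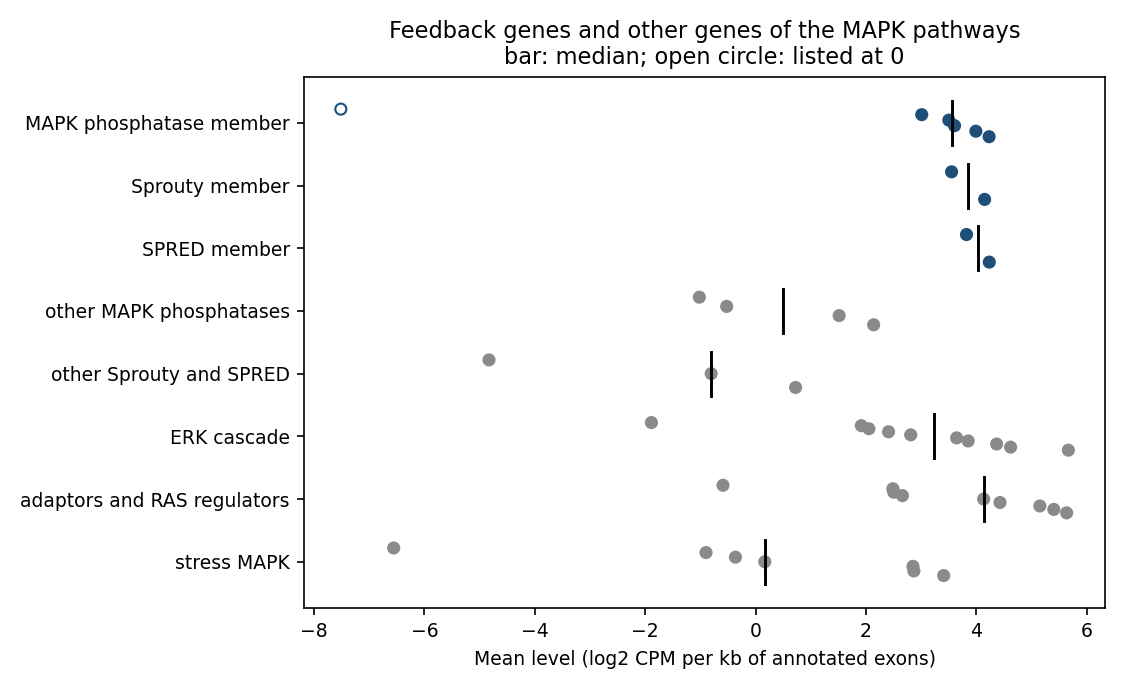
Mean level in log2 CPM per kb of annotated exon (x axis) of the feedback genes (blue) and of other genes of the MAPK pathways (grey), 1 point per gene, with the group median as a bar. The open circle is DUSP8, listed at 0, and the 9 others lie between 3.01 and 4.23.

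DUSP8 (chr11:1554051-1572271, minus strand) was listed at 0, that is, with no counted read in any of the 6 libraries. Of its transcript words of 31 bases, 96.8% were also found on an alternate contig. When its exons were read in windows of 150 bases, 3816 of 3816 windows, 1016 coding windows among them, were letter for letter on chr11_KI270903v1_alt, and 3666 of them (96.1%), including all 1016 coding windows, were on chr11_KI270830v1_alt as well. The printed stretch of exon 2 is 1 of these windows. A read from it maps equally well to several places of a genome that holds the alternate contigs, and many counting procedures leave such reads out. Whether the authors' index held these contigs is not stated.

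Over all protein-coding genes of the table, being listed at 0 moved with this property. Of 379 genes with at least 90% of their words on an alternate contig, 234 (61.7%, Wilson 95% interval 56.8 to 66.5) were listed at 0, against 1754 of 14397 genes (12.2%) with under 1% of their words there. In the bin that holds DUSP8, from 90% to 97% of words, the share at 0 was 53.4%, and between 1% and 50% of words it was 8.18%, below that of genes with under 1%. The interval treats genes as independent, although neighbouring genes lie on the same contigs. Genes that nearly every cell uses were among those listed at 0, and those named here were chosen after their values were seen. NDUFA6, a subunit of respiratory complex I, had 94.3% of its words on alternate contigs, SMARCB1, a core subunit of the SWI/SNF complex, 95.8%, and TIMM22, a mitochondrial import protein, 97.5%. DUSP14, a smaller relative of the phosphatases, was at 0 with 94.5%. MOB2 and TOLLIP, near DUSP8 on chromosome 11 with 0% of their words on alternate contigs, had 244 and 429 reads. The rest of the 379 genes had a read in 1 library or more, and none of them is named here. The 0 of DUSP8 stands for no counted read and gives no level for this gene. The part of the alternate contigs in this 0 was not tested. Of the other 9 feedback genes, SPRED1 had the largest such share, 3.25%.

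**Figure D4:**
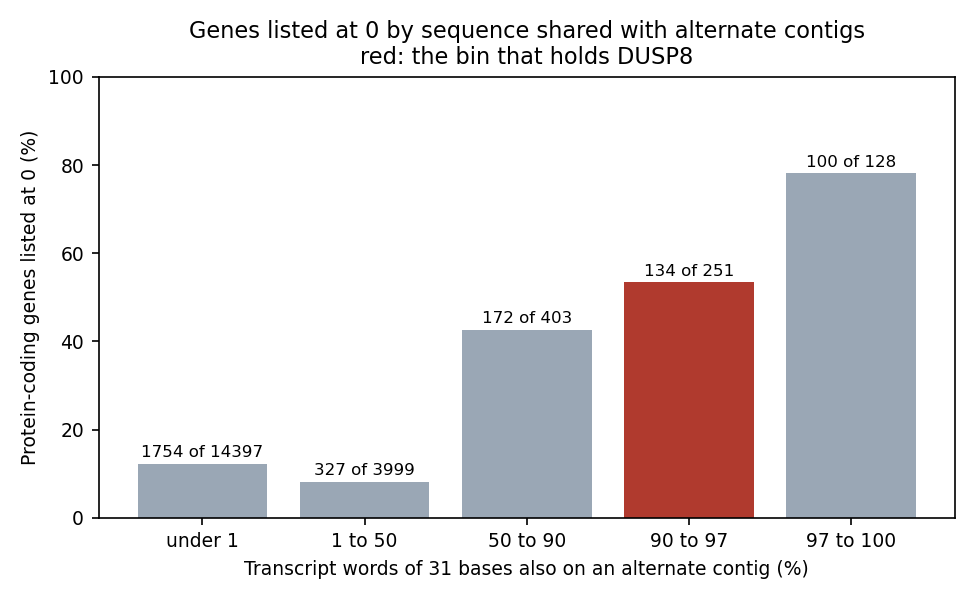
Percent of protein-coding genes listed at 0 (y axis) by the share of their transcript words of 31 bases that also lie on an alternate contig (x axis), with the counts above the bars. The red bar is the bin from 90% to 97%, which holds DUSP8 and in which 53.4% of genes are listed at 0, against 12.2% under 1%, 8.18% from 1% to 50% and 78.1% from 97% upwards.

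Features of the transcripts were not used to choose the 10 genes. All 10 have fewer exons in their canonical transcript than the median of 8 over protein-coding genes, as do 46.5% of those genes, from 2 in SPRY2 and SPRY4 to 7 in DUSP8 and SPRED1. In 3′ UTR length the 10 genes lay on both sides of the median of 1194 bases, with 6 above it, among them SPRED1 with 5585, DUSP4 with 3962 and SPRY4 with 3779. The pentamer ATTTA, the core of AU-rich elements that mark short-lived mRNAs, occurs in the 3′ UTR of 9 of the 10, beside 71.7% of protein-coding genes, and is absent from that of DUSP5. Its density was above the median of 1.68 per kb over 17890 protein-coding genes in 6 of the 10, and this count and that of 3′ UTR length are near the share that lies above any median. DUSP1 had 6.01 per kb, at percentile 94.1 of these genes, and SPRED1 had 4.30 per kb with 24 copies. DUSP6 had 0.50 per kb, at percentile 30.3. A pentamer count describes the sequence and measures no decay.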

How the data were processed

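RNA-seq was performed on A375 cells treated with OLO or OZO, with 3 libraries per group as the labels give them. Per the study's methods, the authors sequenced strand-marking libraries, aligned the reads to hg38 with HISAT2 (version 2.1.0), counted them with featureCounts (2.1.1) and used limma-voom (3.58.1) to compare OZO with OLO. Normalization factors, count filters, the use of strand, the annotation release and the alternate contigs of the index are not given in the sources used here. The deposited log2 values used here are the authors' mean log2 CPM of each gene over all 6 libraries, a pooled value with no SD. The deposited columns of the authors' comparison (fold change, moderated t, p-value, adjusted p-value and log odds) were not used, so no test between OZO and OLO was made and the number of libraries in each direction is unknown.

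Because voom adds 0.5 to each count, the difference of a mean from the lowest value, multiplied by 6 and taken out of the logarithm, must be an odd whole number. Of 11290 low genes (product under 1000, tolerance 1e-06), 100% gave odd whole numbers. With other numbers of libraries assumed, the same limit on the product took in a different set of low genes each time. Of those sets 58.3% to 67.8% gave odd whole numbers. The 7012 genes listed at 0 are in each of these sets and give an odd number whatever number of libraries is assumed. Only the remaining low genes tell these numbers apart. The recovery was tested on simulated data made with the same formula. This checks the calculation and cannot tell whether the authors' values were made that way. Lengths, exons, coding parts and coordinates were taken from GENCODE 44 on hg38, to which 25497 genes were matched by Ensembl ID, the 10 feedback genes among them. Words of 31 bases, taken every 5 bases of the canonical transcript, were sought on 261 alternate contigs, and promoter windows came from RefSeq (GRCh38.p14). Calculations used Python 3.11.15, numpy 2.4.6, scipy 1.17.1, pandas 2.3.3 and matplotlib 3.10.9.

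The 10 genes and all gene lists were chosen with earlier results of these data known. The text names all 10, every other gene of their families, and the highest and lowest gene of each other MAPK pathway list. Further genes of these lists, single marker genes and the genes named for their alternate copies were chosen after their values were seen. Some genes of the lists are not reported here by name. Alternatives changed the gene length, the reference genes, the minimum of reads, the genes included and the share of words that counts as an alternate copy.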

Additional observations from a re-analysis of the deposited data

How the results depend on the processing

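The median level of the 10 genes, 3.71 log2 CPM per kb with all annotated exons, was 4.01 with the longest transcript, 4.01 with the canonical transcript, 6.01 with no length scaling and 3.82 without DUSP8, the last chosen after seeing the data. Of 10 ranks, 5, 5 and 4 were kept with the longest transcript, the canonical transcript and no length scaling. The median percentile, 75.3 among genes that averaged 10 reads or more, was 83.3 among genes with a read and 87.0 among all genes. The number of genes over the minimum was 9 at 1, 10, 50 and 100 reads. The share of genes with an alternate copy listed at 0, 61.7%, was 51.9% from 50% of words, 78.1% from 97%, 48.1% without multigene families and 61.5% without chromosome 6, all chosen after seeing the data, and lay above the 12.2% or 10.6% of genes without a copy in each case.

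No paired analysis was possible because the table used here holds no values of single libraries. The replicate block, the leaving out of each library, the DESeq2 size factors and test, and the fit without a filter on low counts were not run for the same reason. The depth of single libraries is unknown, and a difference between levels carries no error.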
